A study of Mus musculus with 30 samples.

Results

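The genes described here mark mural cells, the pericytes and smooth muscle cells that wrap blood vessels. They are the 10 rows of the gene table that carry the symbols Kcnj8, Abcc9, Pdgfrb, Cspg4, Rgs5, Notch3, Acta2, Tagln, Myh11 and Cnn1, chosen by name out of 36558 gene IDs. The first 6 are used mainly as pericyte markers and the last 4 as smooth muscle markers, and all 10 had enough counts to be tested in both tissues. RNA was sequenced from heart and white adipose tissue of C57BL/6J mice, all male. The mice had been injected with AAV8-F11, an adeno-associated virus that carries the gene of coagulation factor XI, or with AAV8-GFP, which carries green fluorescent protein. For 7 weeks every mouse, controls included, was on a high-fat diet (HFD) and received l-NAME, which blocks nitric oxide synthases. Tissues were collected at an age of 15 weeks. There were 7 AAV8-F11 and 6 AAV8-GFP heart libraries, and 8 AAV8-F11 and 8 AAV8-GFP adipose libraries. No group on a normal diet was analysed here, so each value describes whole tissue of mice under this diet, and AAV8 is known mainly for reaching hepatocytes rather than mural cells.

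Pericytes sit on capillaries within the basement membrane, are recruited there by PDGF-B from endothelial cells acting on the receptor PDGFRB, and share an origin with the smooth muscle cells of arterioles and arteries. Contractile smooth muscle is set apart by actin, myosin and their binding proteins, whose genes are driven by serum response factor (SRF) with its coactivator myocardin. The pore Kir6.1, from Kcnj8, and the sulphonylurea receptor SUR2, from Abcc9, assemble into the ATP-sensitive potassium (K-ATP) channel of vascular mural cells. In the mouse heart SUR2 is also a subunit of the channel of ventricular cardiomyocytes, where it pairs with Kir6.2 from Kcnj11.

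A library held 28064802 to 33022539 counts in the F11 heart group, 25751607 to 30591023 in the GFP heart group, 16755479 to 26329117 in the F11 adipose group and 15949550 to 22525275 in the GFP adipose group. F11 itself was at 0 to 0.0624 CPM (counts scaled to a common library size, with TMM factors between libraries) in F11 hearts and 0 to 0.351 CPM in GFP hearts, and at 0.511 to 16.2 CPM in F11 adipose and 0 to 4.72 CPM in GFP adipose tissue, so hearts give no check of the vector label. Summed over 11 genes, adipocyte markers reached 346 to 558 CPM in hearts and 16830 to 43650 CPM in adipose libraries, so the tissues carry their labelled identity. Some libraries stood apart and bear on the mural genes. The GFP adipose library L140 had 9900 CPM summed over 10 cardiomyocyte genes, against a median of 51.2 CPM in its group. The F11 adipose library L142 had 5978 CPM summed over 9 genes of the male reproductive tract, against a median of 1.49 CPM. The GFP heart library L8 had 39.04 CPM summed over 7 atrial genes, where its group reached 3246 CPM, and the highest sum of globin and other erythroid genes of its group, 4234 CPM. Hepatocyte genes summed to 5012 CPM in L145 (F11 adipose) and 5412 CPM in L136 (GFP adipose), against group medians of 262 and 178 CPM. Where such a library decided a call or a direction, the value without it is given. The tissues are bulk samples, so fewer cells of a type and less RNA per cell cannot be told apart. The labels do not say that libraries are 1 per mouse, and p-values measure the spread between libraries.

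Kcnj8 and Abcc9 are neighbours on the minus strand of chromosome 6 (GRCm38). Kcnj8 lies at chr6:142564837-142571614 and Abcc9 at chr6:142587862-142702315, with 16.2 kb and 0 annotated genes between them. Their upstream sequences, from RefSeq (GRCm38.p6, minus strand, ending at the base before each annotated start), are shown because the transcripts of this pair varied together more closely than any other pair tested in adipose tissue. They stand at chr6:142571615-142571864 and chr6:142702316-142702524.
Kcnj8: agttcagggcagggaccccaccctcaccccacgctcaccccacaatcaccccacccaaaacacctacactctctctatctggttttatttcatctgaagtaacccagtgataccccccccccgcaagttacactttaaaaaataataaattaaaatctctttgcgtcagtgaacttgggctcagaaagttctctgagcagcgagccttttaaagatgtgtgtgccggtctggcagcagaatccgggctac
Abcc9: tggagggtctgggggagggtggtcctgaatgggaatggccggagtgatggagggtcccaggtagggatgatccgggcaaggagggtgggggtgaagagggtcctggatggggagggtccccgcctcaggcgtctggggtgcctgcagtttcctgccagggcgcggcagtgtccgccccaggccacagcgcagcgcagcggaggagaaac

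RefSeq promoter entries were found for 7 of the 10 genes, and Tagln, Myh11 and Pdgfrb are named only. The 250 bases before each start were searched on both strands for the CArG box, the site that SRF binds. The same box with at most 1 core base changed, TATAAA, TGTGGGAA and CATTCC were searched for as well. The strict CArG box was in 1.47% of all 32851 such windows and in none of the 7. With at most 1 core base changed, strict boxes included, it was in 8.59% of windows. Of the 7 genes Acta2 held it, at a pair of positions, each with 1 core base changed. CATTCC, in 12.6% of windows, was found upstream of Abcc9 and Acta2. TATAAA, in 12.4% of windows, and TGTGGGAA, in 1.46%, were found in none of the 7. The Acta2 matches are shown, with 10 bases on each side and the match in capitals, because Acta2 is the classical target of SRF in smooth muscle. They are at chr19:34255438-34255467 and chr19:34255388-34255417 on the minus strand, 84 and 34 bases before the RefSeq start, inside the span that GENCODE annotates for the gene.
Acta2 distal match: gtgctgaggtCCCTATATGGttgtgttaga
Acta2 proximal match: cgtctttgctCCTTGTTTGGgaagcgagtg

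Levels per length of exon, as CPM per kb scaled over all 29 libraries, put the genes in a similar order in both tissues, with 1 large exception. Rgs5, which encodes a regulator that shortens G protein signalling, was the highest in every group. It stood at 136.1 ± 8.64 CPM per kb in F11 hearts and 140.7 ± 21.8 in GFP hearts (SD, n = 7 and 6), and at 73.5 ± 13.8 in F11 adipose and 60.8 ± 14.4 in GFP adipose tissue (SD, n = 8 each). Abcc9 was the exception. It was the second highest in hearts, at 60.7 ± 4.02 CPM per kb with F11 and 56.8 ± 5.12 with GFP, and sixth or seventh in adipose tissue, at 8.81 ± 1.53 CPM per kb with F11 and 6.98 ± 1.66 with GFP. Acta2, the alpha actin of smooth muscle, followed Abcc9 in hearts (36 ± 10.5 with F11 and 38.1 ± 9.73 with GFP) and Rgs5 in adipose tissue (57.9 ± 10.8 with F11 and 60.1 ± 15.4 with GFP), where its range overlapped that of Rgs5. In F11 hearts its range overlapped that of Abcc9. The lowest were Cspg4, the NG2 proteoglycan, at 2.67 to 3.62 CPM per kb over the 4 group means, and Cnn1, calponin, at 0.678 to 1.49 CPM per kb. Between these ends lay Pdgfrb, Kcnj8, Tagln, Notch3 and Myh11. Library ranges of neighbours in this order overlapped for Pdgfrb, Kcnj8 and Tagln and for Notch3 and Myh11 in both heart groups, so their order there is not set. In adipose tissue they overlapped for Notch3, Abcc9, Kcnj8 and Myh11 in both groups. Those of Acta2 and Tagln in adipose tissue, and of Rgs5 and Abcc9 in heart, did not overlap with either vector.

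**Figure D1:**
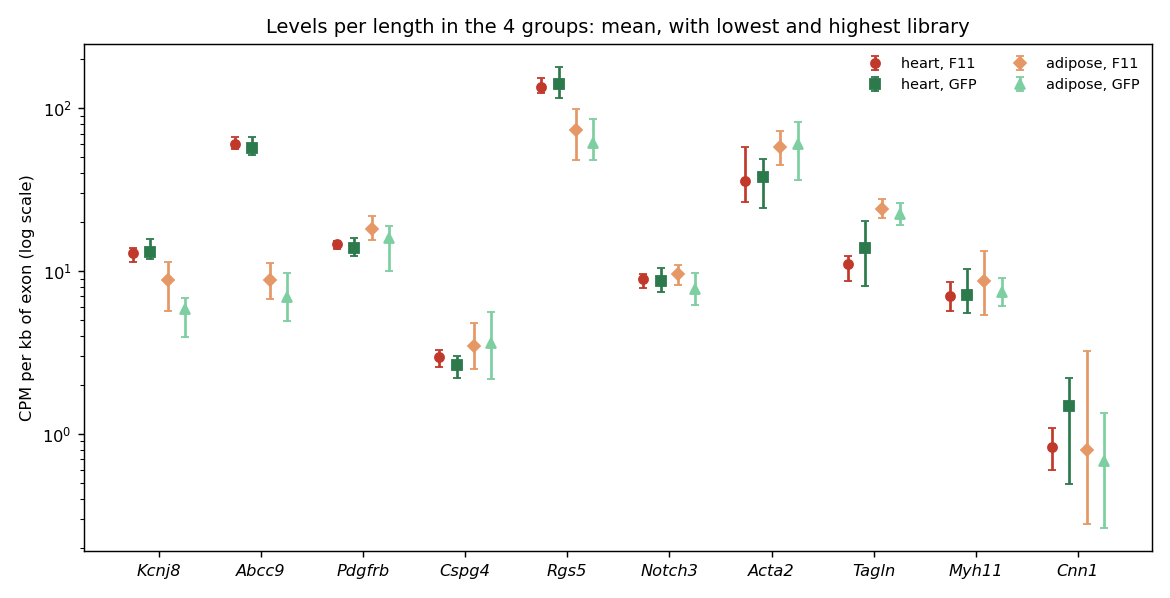
Level per length (CPM per kb of exon, log axis) of the 10 genes in F11 heart, GFP heart, F11 adipose and GFP adipose libraries. Symbols are group means and bars run from the lowest to the highest library; Abcc9 lies between 51.8 and 66.8 in hearts and between 4.97 and 11.3 in adipose tissue.

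The Tagln level is uncertain. Of the 31-base words in its transcripts 62.2% also occur in transcripts of other genes, most of them in Gm48529, an antisense gene whose exons overlap it, and Pcsk7 overlaps it from the opposite strand as well. No strand setting is given in the sources used here, so reads of Tagln and its antisense neighbour cannot be told apart. This share and those below are from GENCODE M21 transcripts, and the annotation behind the deposited counts is not named. Of the overlapping antisense genes, only Pcsk7 was found by its symbol in the gene table, and Gm48529 was not. Scaled over all libraries, Pcsk7 had 4.065 and 4.299 CPM per kb in F11 heart and adipose libraries. In GFP heart and adipose libraries it had 4.154 and 4.331 CPM per kb. The shares were 6.59% for Notch3 and 3.18% for Abcc9, each most often with an antisense gene that overlaps it, 1.39% for Acta2, 0.905% for Myh11 and 0.376% for Rgs5. Kcnj8, Pdgfrb, Cspg4 and Cnn1 shared none.

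In heart Abcc9 far exceeded Kcnj8 per length, and in adipose tissue the channel genes stood close to 1 to 1. The length is the union of all annotated exons of a gene, and the absolute ratio depends on it. It is a ratio of RNA and does not measure the proportions of channel subunits. The ratio of Abcc9 to Kcnj8, both in CPM per kb, was 4.25 in the lowest, 4.67 in the median and 5.05 in the highest F11 heart, and 3.97, 4.38 and 4.69 in GFP hearts. In F11 adipose libraries it was 0.916, 0.997 and 1.18, and in GFP adipose libraries 0.978, 1.20 and 1.44, so no heart library overlapped an adipose library. The ratio was 4.62 times as high in heart as in adipose tissue with F11 (adjusted p = 0.00124) and 3.68 times with GFP (adjusted p = 0.00133), in two-sided exact permutation tests of its log2 adjusted over 4 comparisons. The unadjusted p-values of these tissue comparisons are the smallest these designs allow. Within adipose tissue the ratio was 0.855 times as high with F11 as with GFP (adjusted p = 0.0108), and 0.885 times without L140 and L142 (adjusted p = 0.0381). In heart the log2 ratio was higher by 0.105 with F11 than with GFP (adjusted p = 0.0478), and by 0.0955 without L8, where it did not pass (adjusted p = 0.096). These ratios were chosen after the values of both genes had been seen.

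The cardiac partners of the channel were measured alongside. Kcnj11, which encodes the pore Kir6.2, had 52.0 ± 1.66 CPM per kb in F11 hearts and 49.8 ± 2.59 in GFP hearts (SD, n = 7 and 6), near the level of Abcc9 there. In adipose tissue it ranged from 0 to 1.84 CPM per kb with F11 and from 0.0112 to 3.41 with GFP. Abcc8, which encodes the receptor SUR1, had 5.75 ± 0.877 CPM per kb in F11 hearts and 5.41 ± 0.947 in GFP hearts. It reached at most 0.0663 CPM per kb in F11 adipose and 0.538 in GFP adipose libraries. Abcc9 of cardiomyocytes and of mural cells cannot be told apart in these bulk libraries.

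**Figure D2:**
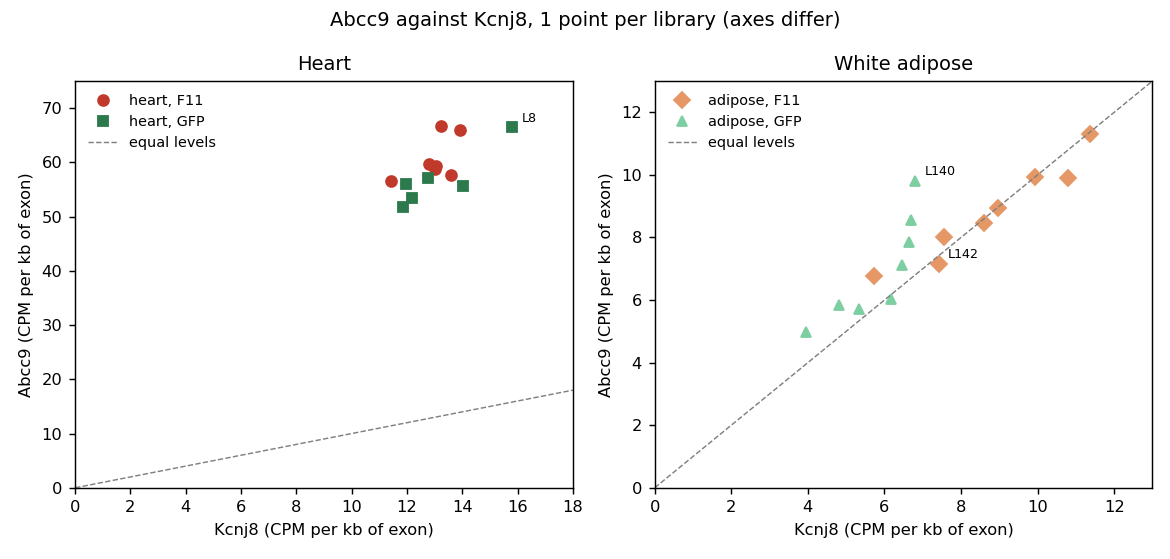
Abcc9 against Kcnj8, each in CPM per kb of exon, with 1 point per library in heart (left) and white adipose tissue (right, other axis limits). The dashed line marks equal levels: all heart libraries lie above it at 3.97 to 5.05 times, and adipose libraries lie near it at 0.916 to 1.44 times.

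Whether factor XI altered mural markers in adipose tissue was asked by comparing F11 with GFP libraries. None of the 10 genes passed the threshold, an adjusted p of 0.05 over all 15229 genes tested with edgeR's quasi-likelihood test, and no gene at all did (0.0%). The ranges of F11 and GFP libraries overlapped for all 10, where they did not overlap for 0.0197% of genes. Fitted fold changes were positive for 8 of the 10, against 49.8% of all genes, with a median log2 change of 0.239 against -0.000708 for all genes. Without L140 and L142 7 of 10 were positive and the median was 0.126. At an unadjusted p of 0.05, which 4.19% of genes passed in either direction and 2.55% as higher, 3 members were reached, all with higher means under F11. They were Kcnj8, Notch3 and Abcc9. By other tools no member passed either. In this comparison DESeq2 called 11 genes and limma voom 0.

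Kcnj8 had 19.5 CPM in the lowest, 29.6 in the median and 39.2 in the highest F11 adipose library, against 13.5, 21.6 and 23.5 CPM in GFP adipose tissue. The ranges overlapped, yet 7 of 8 F11 libraries lay above the GFP median and 7 of 8 lay above the highest GFP library. Its log2 fold change was 0.59 (SE 0.145, 95% interval 0.282 to 0.897, adjusted p = 0.939), the tenth lowest p of all genes. The adjusted p was 0.0667 with DESeq2, 0.15 with limma voom and 0.00445 with an adipocyte score as a covariate, where Kcnj8 was the 1 gene called, and over all alternatives it ran from 0.00445 to 1. The log2 estimate was 0.65 without L140 and L142, and 0.55 with L136, L145 and L146 left out as well. Notch3, the Notch receptor that mural cells need for their maturation, had 89.2, 106.2 and 118.5 CPM with F11 and 66.9, 81.2 and 107 CPM with GFP. All 8 F11 libraries were above the GFP median, and the GFP libraries L136 and L139 lay within the F11 range. The log2 fold change was 0.32 (SE 0.0828, 95% interval 0.141 to 0.492, adjusted p = 0.939).

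Abcc9 had 75.7, 96.4 and 128.1 CPM in F11 adipose libraries and 55.6, 73.9 and 111.1 CPM in GFP adipose libraries, where the highest was L140, the library rich in cardiomyocyte transcripts. All 8 F11 libraries exceeded the GFP median. The log2 fold change of 0.34 (SE 0.145, adjusted p = 0.9996) was 0.46 without L140 and L142 (adjusted p = 0.815). Rgs5 had 294.2, 444 and 606 CPM with F11 and 291.5, 322 and 527 CPM with GFP, a log2 fold change of 0.28 with a 95% interval of -0.0413 to 0.596. Pdgfrb, the receptor for PDGF-B, had 116, 135.8 and 161 CPM with F11 and 73.9, 118 and 140.4 CPM with GFP, the lowest again in L140. Its log2 fold change was 0.20 (95% interval -0.0278 to 0.425). Cspg4 had 40.6, 54.5 and 77.1 CPM with F11 and 34.8, 57.1 and 86.2 CPM with GFP, and its estimate of -0.06 had an interval of -0.443 to 0.321.

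The 4 smooth muscle genes in adipose tissue had intervals that span 0. Acta2 had 133.9, 173 and 211 CPM with F11 and 108, 161 and 242 CPM with GFP (log2 fold change -0.05, 95% interval -0.385 to 0.291, and -0.17 without L140 and L142). Tagln, which encodes the actin-binding protein transgelin, had 56.0, 64.8 and 74.4 CPM with F11 and 49.5, 57.5 and 69.8 CPM with GFP (log2 0.12, interval -0.0682 to 0.313). Myh11, the smooth muscle myosin heavy chain, had 55.0, 86.6 and 138.2 CPM with F11 and 62.5, 75.7 and 93.3 CPM with GFP (log2 0.23, interval -0.0894 to 0.554). The highest Myh11 value was in L142. Cnn1 had 1.02, 1.71 and 12.2 CPM with F11 and 0.979, 2.09 and 4.96 CPM with GFP, and L142 again held the highest. The Cnn1 estimate of 0.25 was -0.60 without L140 and L142, and the log2 estimate of Myh11 was 0.10. Actg2, the gamma actin of visceral smooth muscle, had 324 CPM in L142, and its GFP libraries ranged from 0.816 to 4.47 CPM. The part of reproductive tract tissue in the values of these 3 genes was not tested.

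**Figure D3:**
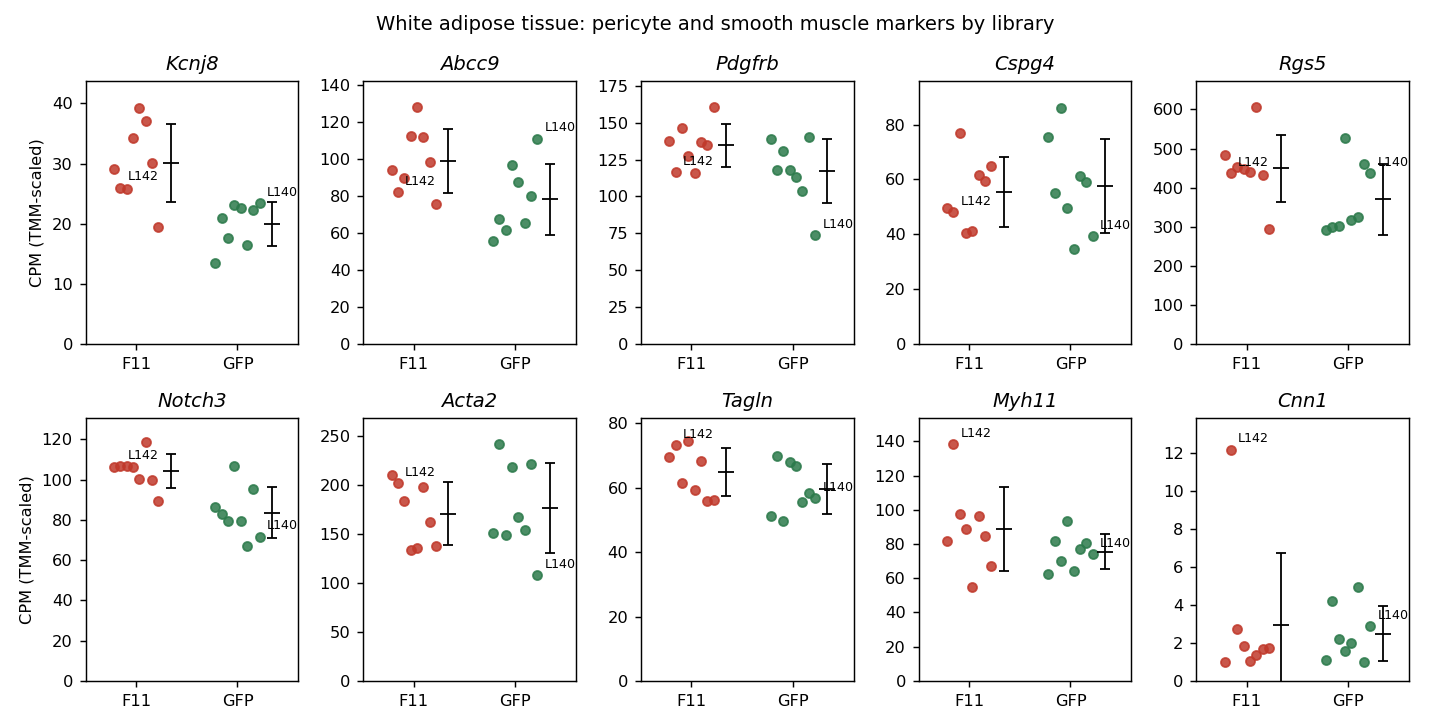
CPM of the 10 genes in each white adipose library, F11 left and GFP right, with group mean ± SD in black (n = 8 each; the SD bar of Cnn1 with F11 is cut at 0). L140 and L142 are named; Kcnj8 lies at 19.5 to 39.2 with F11 and 13.5 to 23.5 with GFP.

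Markers of other cells varied beside these values. Endothelial genes had positive fold changes in 16 of 17, against 49.8% of all genes (median log2 0.134, 0 called), with sums of 1797 to 3068 CPM in F11 and 1788 to 2820 CPM in GFP adipose libraries. Macrophage genes were positive in 0 of 11 (median log2 -0.196, 0 called), with sums of 1322 to 8173 CPM with F11 and 907.1 to 7012 CPM with GFP. L148, with the highest macrophage and the lowest adipocyte sum of the F11 libraries, was also the lowest of them for Kcnj8, Abcc9, Notch3 and Rgs5 and the highest for Pdgfrb. L133, with the highest macrophage and the lowest adipocyte sum of the GFP libraries, was the lowest of them for Kcnj8, Abcc9, Rgs5 and Myh11. With an endothelial score in the fit the log2 fold change of Kcnj8 was 0.46, that of Notch3 0.27 and that of Abcc9 0.24. With a macrophage score they were 0.53, 0.31 and 0.30.

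In heart the same comparison called none of the 10 genes, where 0.872% of 14684 genes passed, 0.518% as higher and 0.354% as lower with F11. At an unadjusted p of 0.05, which 12.5% of genes passed, 1 member was reached, Cnn1. Members with positive fold changes were 4 of 10, against 47.5% of all genes, and the median log2 change was -0.0134 for the members and -0.00556 for all genes. The 6 pericyte genes differed little, by log2 estimates between -0.05 and 0.16. Kcnj8 had 20.2, 23.4 and 24.6 CPM in F11 hearts and 21.2, 22.1 and 28.2 CPM in GFP hearts, a log2 fold change of -0.01 with a 95% interval of -0.152 to 0.124. That interval leaves out the 0.59 estimated in adipose tissue, which had an interval of 0.282 to 0.897. The direct contrast of both effects, given below, did not pass for Kcnj8. Abcc9 had 330.2, 348 and 387 CPM with F11 and 304, 326 and 389 CPM with GFP (log2 0.09, interval -0.0218 to 0.212). The lowest F11 heart was above the GFP median of Abcc9, and L8 was the highest of all hearts. Cspg4 had 21.4, 25.1 and 27.4 CPM with F11 and 18.4, 22.1 and 25.2 CPM with GFP (log2 0.16, interval -0.00117 to 0.319, adjusted p = 0.403). Pdgfrb had 52.0, 56.1 and 59.1 CPM with F11 and 47.6, 51.3 and 61.1 CPM with GFP (log2 0.06). Rgs5 (396 to 481 CPM with F11 and 370.3 to 570.4 CPM with GFP) and Notch3 (44.0 to 54.2 CPM with F11 and 41.9 to 59.1 CPM with GFP) had intervals that span 0.

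The smooth muscle genes had fold changes below 0 in all 4, with a median log2 of -0.215, and none passed. Cnn1 had 1.14, 1.71 and 2.06 CPM in F11 hearts and 0.940, 3.07 and 4.17 CPM in GFP hearts. None of 7 F11 libraries was above the GFP median, and the 1 GFP library below the F11 range was L8. The log2 fold change was -0.84 (SE 0.282, 95% interval -1.45 to -0.235, adjusted p = 0.208). Without L8 it was -1.02 (adjusted p = 0.022, where all alternatives ran from 0.022 to 1), and Cnn1 was then the 1 member called. Tagln had 12.1, 15.5 and 17.03 CPM with F11 and 11.3, 19.1 and 28.2 CPM with GFP (log2 -0.34, SE 0.177, adjusted p = 0.46). Here too none of 7 F11 libraries exceeded the GFP median. Acta2 had 40.7, 53.0 and 89.3 CPM with F11, the highest in L31, and 37.3, 57.7 and 74.8 CPM with GFP (log2 -0.09). Myh11 had 30.2, 37.9 and 45.0 CPM with F11 and 29.3, 34.8 and 54.8 CPM with GFP (log2 -0.01).

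Mesothelial and atrial genes varied beside the smooth muscle values. The sum over 10 mesothelial genes was 5.40 to 13.01 CPM in F11 hearts and 11.8 to 21.5 CPM in GFP hearts, with 0 of 9 tested genes positive and 0 called. With a mesothelial score in the fit the log2 fold change of Cnn1 was -0.51 (adjusted p = 0.624), and with an atrial score it was -0.83 (adjusted p = 0.185). Atrial sums were 285 to 2872 CPM with F11 and 39.04 to 3246 CPM with GFP. Within the 6 GFP hearts L8 was the highest in 5 of 6 pericyte genes and the lowest in 4 of 4 smooth muscle genes. It had 570.4 CPM of Rgs5, where the other GFP hearts had 370.3 to 474.0 CPM, and 0.940 CPM of Cnn1, where they had 1.90 to 4.17 CPM. Without L8 all 6 pericyte genes had positive fold changes (median log2 0.0974) and 0 of 4 smooth muscle genes did (median log2 -0.321). Given the place of L8 in its group, leaving it out moves the estimates in these directions by itself. This split is therefore a description of L8 and no separate result on F11.

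**Figure D4:**
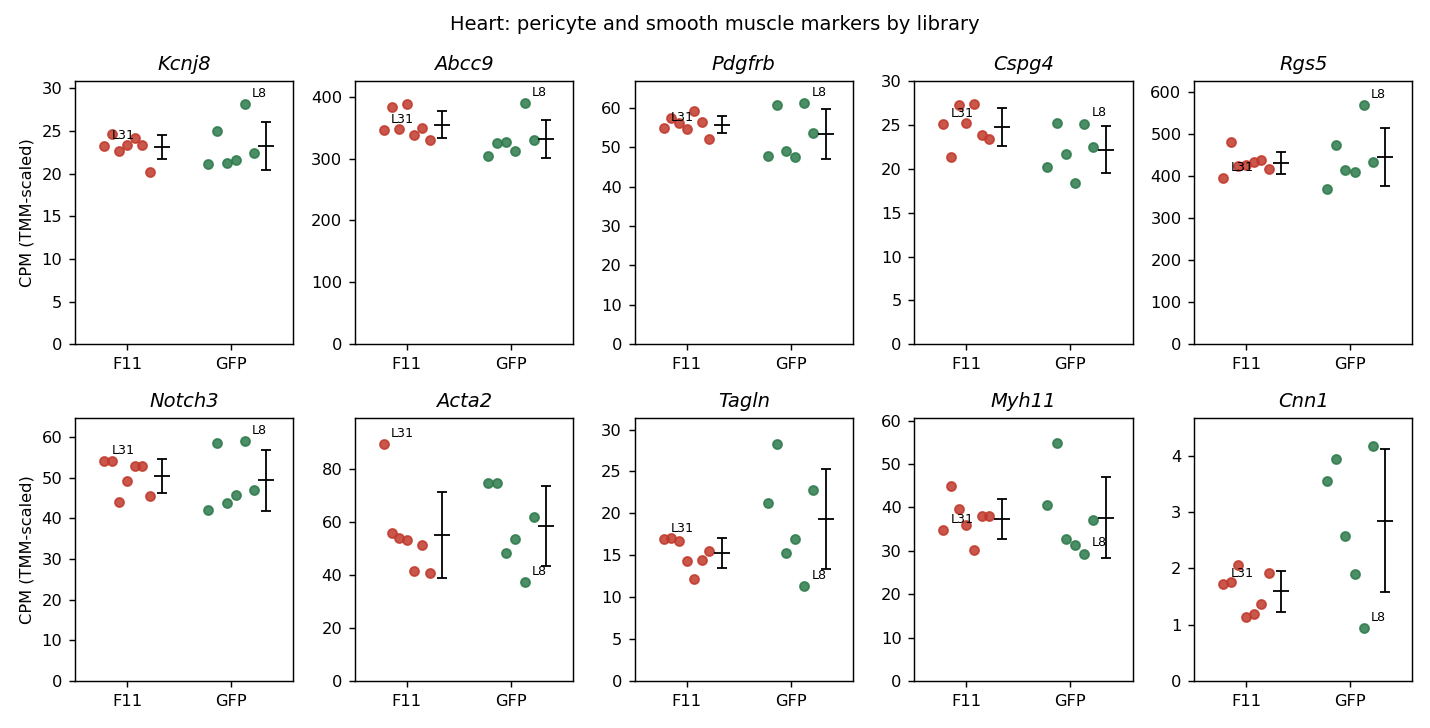
CPM of the 10 genes in each heart library, F11 left (n = 7) and GFP right (n = 6), with group mean ± SD in black. L8 and L31 are named; L8 is the highest GFP heart for Kcnj8, Abcc9, Pdgfrb, Rgs5 and Notch3 and the lowest for Acta2, Tagln, Myh11 and Cnn1.

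The change with F11 in heart was also set against that in adipose tissue, in a contrast of the 2 effects over all libraries. None of the 10 genes passed, where 0.0242% of 16526 genes did, and 3 had an unadjusted p under 0.05, against 7.43% of genes. The 3 were Kcnj8, Tagln and Notch3. The difference of log2 fold changes, heart minus adipose, was -0.59 for Kcnj8 (SE 0.172, 95% interval -0.948 to -0.241, adjusted p = 0.299), which ranked 98 of all genes by p. For Tagln it was -0.45 (SE 0.184, adjusted p = 0.537) and for Notch3 -0.28 (SE 0.124, adjusted p = 0.61). Of the 10 genes 1 had a difference above 0, Cspg4 at 0.23, against 49.8% of all genes. The median was -0.256 for the members and -0.00125 for all genes.

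**Figure D5:**
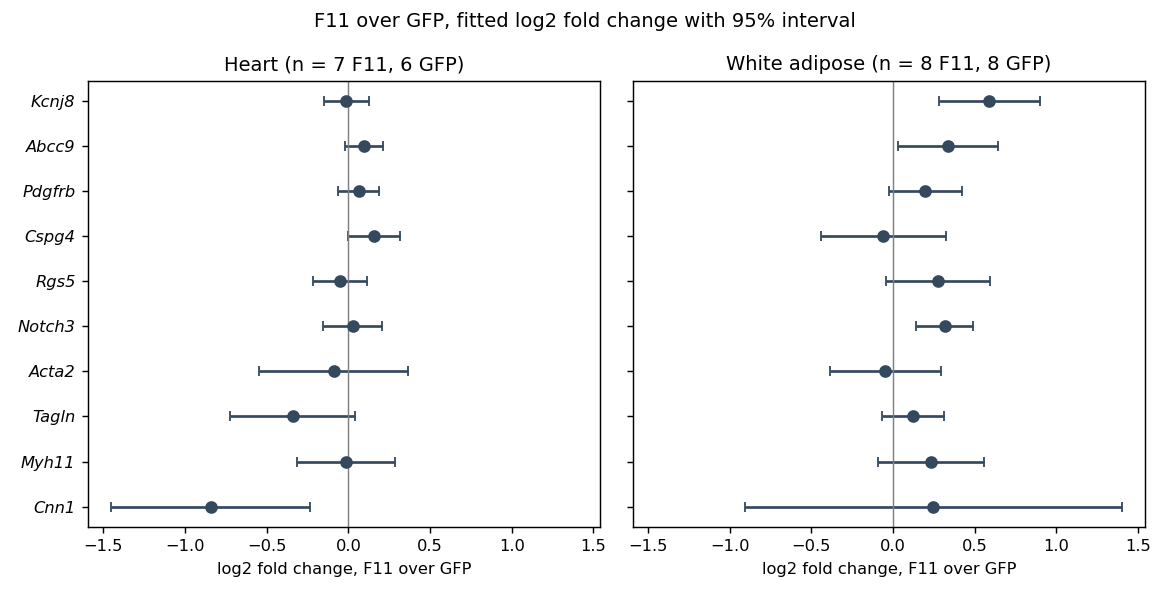
Fitted log2 fold change of F11 over GFP with its 95% interval for each gene, in heart (left) and white adipose tissue (right). Intervals of Kcnj8, Notch3 and Abcc9 lie above 0 in adipose tissue and that of Cnn1 lies below 0 in heart, before adjustment over all genes.

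Most of the members differed between tissues, as did most genes. In F11 libraries, heart against adipose tissue, 6 of 10 members passed, against 81.6% of all genes, and in GFP libraries 8 of 10 passed, against 80.2%. Abcc9 had the largest tissue difference of the 10. Its log2 difference, heart over adipose, was 2.81 in F11 libraries (95% interval 2.55 to 3.06) and 3.04 in GFP libraries (2.78 to 3.30). In both Rgs5 (0.91 with F11 and 1.23 with GFP) and Kcnj8 (0.58 with F11 and 1.18 with GFP) passed as higher in heart, and Tagln (-1.11 with F11 and -0.66 with GFP) and Acta2 (-0.66 with F11 and -0.64 with GFP) passed as lower. Pdgfrb passed as lower in heart with F11 (-0.30), and with GFP Cspg4 passed as lower (-0.42) and Cnn1 (1.15) and Notch3 (0.20) as higher. Higher calls were 36.6% and lower calls 45.0% of all genes with F11, and 36.8% and 43.4% with GFP.

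Directions between tissues depend on the scaling. With library totals in place of TMM the median log2 difference of all genes was -1.13 in place of -0.132 with F11 and -1.04 in place of -0.109 with GFP. The members called then split into 1 higher and 7 lower with F11 and 2 higher and 6 lower with GFP, in place of 3 and 3 with F11 and of 5 and 3 with GFP. Abcc9 was higher in heart and Acta2 and Tagln lower under both scalings. Kcnj8, Rgs5 and Cnn1 turned below 0 with F11, and Notch3 with GFP. Cnn1 with F11 also rested on L142: its log2 difference between tissues was 0.10 with that library (adjusted p = 0.85) and 0.94 without it (adjusted p = 0.0135).

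Across libraries of a tissue, after the mean of each vector group was subtracted from log2(CPM + 1), 4 of 12 relations between chosen pairs passed by Pearson's r in two-sided permutation tests adjusted over the 12. In adipose tissue Kcnj8 and Abcc9 had r = 0.888 (adjusted permutation p = 0.00036) and rho = 0.912 (adjusted p = 0.00024) over 16 libraries. The r was 0.831 without L133 and L145, the libraries farthest from the median of Kcnj8, and 0.921 without L140 and L142. In heart this pair had r = 0.771 (adjusted permutation p = 0.0142) and rho = 0.621 (adjusted p = 0.0916) over 13 libraries, and r was 0.316 without L8 and L40, so the relation rests on those libraries.

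Pdgfrb and Notch3 varied together in heart (r = 0.856, adjusted permutation p = 0.0126; rho = 0.769, adjusted p = 0.0332; r = 0.834 without L6 and L1). In adipose tissue they had r = 0.362 (adjusted permutation p = 0.315) and rho = 0.356 (adjusted p = 0.246). Acta2 and Tagln varied together in heart (r = 0.764, adjusted permutation p = 0.0126; rho = 0.841, adjusted p = 0.0164; r = 0.775 without L31 and L8), and had r = 0.537 (adjusted permutation p = 0.0755) and rho = 0.50 (adjusted p = 0.128) in adipose tissue. Myh11 and Cnn1 had r = 0.716 in heart (adjusted permutation p = 0.0555) with rho = 0.747 (adjusted p = 0.0355). In adipose tissue their r of 0.633 (adjusted permutation p = 0.0555; rho = 0.341, adjusted p = 0.246) was 0.18 without L142 and L145. The relations of Rgs5 with Cspg4 and of Pdgfrb with Acta2 did not pass in either tissue.

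As a description with no test, Spearman's rho over heart libraries was positive in all 15 pairs of pericyte genes (median 0.665) and in all 6 pairs of smooth muscle genes (median 0.788). The 24 pairs that cross the roles had a median of -0.0907. Without L8 these medians were 0.594, 0.678 and 0.206. In adipose tissue 9 of 15 pericyte pairs were positive (median 0.159), from -0.721 for Abcc9 with Cspg4 to 0.912 for Kcnj8 with Abcc9. Pdgfrb and Cspg4 had negative rho with both channel genes there. Libraries share depth and cell makeup across all such pairs.

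The genes whose pattern was most like Kcnj8 in heart, by rho over 13 libraries among 9807 genes with a mean of at least 5 CPM, were Steap4 (0.945), Ankrd44 (0.907), Itpripl2 (0.89), Lamc1 (0.885) and Ptprb (0.874). Without L8 these ran from 0.734 for Steap4 to 0.902 for Lamc1. In adipose tissue, over 16 libraries and 11908 genes, they were Map4k5 and Echdc3 (0.962 each), Nr1d1 and Proca1 (0.959 each) and Mknk2 (0.956). Nr1d1 encodes a circadian repressor, and its rho was 0.96 without L140 and L142. Abcc9, being a member, was not ranked, and its rho with Kcnj8 was 0.912. For Myh11 in heart they included Ddx56 (0.934), Mrpl40 (0.874), Cenpb (0.852) and Scaf1 (0.846). In adipose tissue Myl9 (0.818), the regulatory light chain of smooth muscle myosin, was closest to Myh11, followed by Tbce (0.806), St8sia6 (0.791), Card6 (0.776) and Gga2 (0.774), and without L140 and L142 these ran from 0.666 for Card6 to 0.873 for St8sia6.

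Of 15 other pericyte markers 1 fell in F11 hearts and 0 rose, where 0.354% of all genes were called lower and 0.518% higher. It was Steap4, a metalloreductase, with 21.2 ± 1.89 CPM in F11 and 26.2 ± 2.71 CPM in GFP hearts (SD, n = 7 and 6; log2 -0.31, adjusted p = 0.0357). Without L8 the estimate was -0.25 (adjusted p = 0.0713), and the call was also lost without L2, L5, L31, L35, L36, L39 or L40 (adjusted p up to 0.0885) and in the fit over all libraries (-0.30, adjusted p = 0.789). The list had 6 of 15 positive fold changes in heart (47.5% of all genes) and 11 of 15 in adipose tissue (49.8% of all genes), with medians of -0.0514 and 0.162 and 0 called in adipose tissue. The lowest p-values in adipose tissue belonged to both subunits of soluble guanylate cyclase, the receptor for nitric oxide. Gucy1b1 had 23.1 ± 2.12 CPM with F11 and 17.01 ± 3.07 CPM with GFP (SD, n = 8 each; log2 0.44, adjusted p = 0.852), and Gucy1a1 had 46.8 ± 4.47 CPM with F11 and 34.7 ± 6.29 CPM with GFP (log2 0.43, adjusted p = 0.939). By DESeq2 both passed, with adjusted p-values of 0.0219 and 0.0391. In the fit over all libraries Gucy1b1 passed (adjusted p = 0.046) and Gucy1a1 did not (adjusted p = 0.174). Over all alternatives the adjusted p-values of both ran up to 1. Between tissues Steap4 and Mcam were lower in heart, and Des, which cardiomyocytes also express, was higher, with both vectors. Which cells carry Steap4 and Mcam in adipose tissue was not tested.

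Of 20 other smooth muscle contractile genes 1 rose in F11 hearts and 0 fell, where 0.518% of all genes were called higher and 0.354% lower. Vcl, which encodes vinculin and is also made by cardiomyocytes, had 128.6 ± 7.56 CPM with F11 and 111.3 ± 4.95 CPM with GFP (SD, n = 7 and 6; log2 0.21, adjusted p = 0.0258). This call was lost without L2, L5, L6, L8, L33, L35, L36 or L39, with estimates of 0.19 to 0.21 and adjusted p-values up to 0.0785. It was also lost with library totals (adjusted p = 0.0937), with a mesothelial score (0.0817) and in the fit over all libraries (0.105). The list's median log2 change was -0.064 in heart and 0.0958 in adipose tissue, where 0 of the list and 0% of all genes were called. Fold changes were positive for 5 of 20 in heart (47.5% of all genes) and 13 of 20 in adipose tissue (49.8% of all genes). Of 9 SRF and myocardin regulators, 6 PDGF ligands and receptors and 14 tested Notch pathway genes 0 were called in either tissue with F11. Over all genes 0.872% were called in heart and 0% in adipose tissue, so lists this short are likely to hold 0 calls. The Notch genes with the lowest p in heart were Notch1 (67.2 ± 4.41 CPM with F11 and 57.9 ± 5.31 CPM with GFP, adjusted p = 0.0951) and Notch4 (45.6 ± 6.42 CPM with F11 and 33.8 ± 6.14 CPM with GFP, adjusted p = 0.12; SD, n = 7 and 6). With an endothelial score in the fit both passed, at adjusted p-values of 0.0174 and 0.00389, and DESeq2 gave 0.0305 and 0.011. The highest over all alternatives were 0.891 and 0.71, from the fit over all libraries. Jag1, a Notch ligand, and Hey1, a Notch target, had the lowest p of that list in adipose tissue, with log2 fold changes of 0.17 and 0.24. Of the K-ATP and other smooth muscle channel genes 0 of 11 tested in heart and 0 of 9 tested in adipose tissue were called.

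Of the 9 SRF and myocardin regulators 6 passed as higher and 2 as lower in heart with F11 (median log2 difference 0.34), and 7 as higher and 1 as lower with GFP (median 0.53). Most of all genes passed between tissues, as given above. The regulators with the lowest p included Srf and Myocd. Srf was higher in heart than in adipose tissue by 2.79 on the log2 scale in F11 libraries (adjusted p = 1.72e-23) and by 2.70 in GFP libraries (adjusted p = 7.55e-23). Myocd, myocardin, was higher in heart by 7.14 on the log2 scale with F11 (adjusted p = 9.40e-16) and by 6.34 with GFP (adjusted p = 6.49e-15). Cardiomyocytes also express both regulators. Acta2 and Tagln were lower in heart, as given above.

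Paralogs of the members were also measured. Of the 31-base words that Acta2 and Myh11 share with other genes, 28 of 30 lie in Gm6375 for Acta2 and 64 of 69 in Myh9 for Myh11. Actc1, the cardiac actin, had 4951 ± 526 CPM per kb in F11 hearts and 4090 ± 602 CPM per kb in GFP hearts (SD, n = 7 and 6), over 100 times the level of Acta2 there. Myh6, the alpha myosin heavy chain of cardiomyocytes, rose in F11 hearts (28440 ± 1400 CPM with F11 and 23140 ± 1210 CPM with GFP, log2 0.30, adjusted p = 0.00192) and was the 1 paralog called in either tissue. In the fit over all libraries its estimate was again 0.30 and the call was lost (adjusted p = 1). Over all genes 0.872% were called in heart and 0% in adipose tissue. Myh9, the nonmuscle myosin heavy chain, had 19.8 ± 1.59 CPM per kb in F11 hearts and 17.5 ± 2.42 in GFP hearts. In adipose tissue it had 45.8 ± 5.58 CPM per kb with F11 and 44.5 ± 6.38 with GFP. Its source cells cannot be told from bulk tissue. Every one of these group means of Myh9 was above that of Myh11.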

How the data were processed

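The deposited values are estimated counts. The authors ran kallisto 0.46 with GRCm38.p6, per the submitters' processing notes, on miRNeasy total RNA and Nugen Universal Plus mRNA libraries, per the labels' protocols. Neither the annotation release nor a strand setting was named, and 30.8% of values were not whole. Of 30 named libraries 29 were in the table, and GFP heart L10 was not analysed here. Library pairs of a group differed beyond sampling noise (lowest chi-square per degree of freedom 3.36).

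Counts were rounded and tested with edgeR 4.0.16 in R 4.3.3 (filterByExpr, TMM, robust quasi-likelihood, two-sided, Benjamini-Hochberg over all genes, threshold 0.05); fold changes are F11 over GFP or heart over adipose. The fits were also run on simulated counts with known changes. How often changes of the members' size were recovered is not reported here. CPM use TMM within a tissue, and CPM per kb use TMM over all libraries and the exon union of GENCODE M21 (GRCm38). Correlations used 100000 permutations within vector groups (smallest p 1e-05). Alternatives were DESeq2 1.42.0, limma 3.58.1 voom, other size factors and filters, 1 fit of both tissues together, a looser threshold (0.1), an endothelial score, and leaving out each library. Other covariates and sets of libraries left out were added after the data were seen. The members and lists were chosen with earlier results of these data known. Named genes were the 10 members, per list up to 4 called genes or else the 2 lowest p-values, the 5 genes most like Kcnj8 and Myh11, and paralogs; other named genes were chosen after their values were seen. Some results under this rule are not reported here.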

Additional observations from a re-analysis of the deposited data

Results flagged for a closer look

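Over 40 sets of values, 10 genes in 4 groups, 3 held a library far from the rest of its group, where chance gives about 1 in 20. In F11 adipose tissue Cnn1 was at 12.2 CPM in L142, and the next library had 2.71 CPM (gap 0.848 of the range). In F11 hearts Acta2 was at 89.3 CPM in L31, and the next had 55.8 CPM (gap 0.69 of the range). In GFP hearts Abcc9 was at 389 CPM in L8, and the next had 331 CPM (gap 0.685 of the range).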

How the results depend on the processing

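The count of called members was 0 in adipose tissue under every alternative except the adipocyte score, which gave 1, and in heart it was 0 to 1 leaving out 1 library (1 without L8). With library totals the members' median log2 tissue difference was -1.13 with F11 and -0.857 with GFP. Some log2 estimates changed sign. With F11 in heart these were Kcnj8 (0.0225 by voom, 0.00428 with the atrial score, -0.0392 to 0.0501 leaving out 1), Myh11 (0.0161 by voom, -0.0729 to 0.126), Notch3 (-0.0622 with the mesothelial score, -0.0151 to 0.0868), Rgs5 (-0.0975 to 0.0344), Pdgfrb (-0.00982) and Acta2 (0.143), both with the mesothelial score. In adipose tissue they were Cnn1 (-0.363 by voom, -0.597 without L140 and L142, -0.531 without L136, L140, L142, L145 and L146, -0.629 to 0.476 leaving out 1), Cspg4 (0.0678, 0.0158 and 0.0222 with endothelial, macrophage and adipocyte scores, -0.144 to 0.0455) and Acta2 (-0.126 to 0.0326). The difference of effects for Acta2 was 0.0821 by voom, 0.0739 without L140 and L142 and -0.184 to 0.0539 leaving out 1. Between tissues, library totals gave Kcnj8 -0.406, Rgs5 -0.0835 and Cnn1 -0.94 with F11 and Notch3 -0.737 with GFP, and leaving out 1 gave Cnn1 -0.0339 to 0.937 with F11 and Myh11 -0.184 to 0.0136 with GFP. Calls near the threshold, heart against adipose with GFP, were Notch3 (adjusted p up to 0.158, without L8), Cnn1 (up to 0.0667, without L9) and Cspg4 (up to 0.0643, without L135). The cause of these changes was not tested. Of all genes in heart, DESeq2 called 373, voom 196 and the fit over all libraries 30, against 128 with edgeR per tissue. In adipose tissue they called 11, 0 and 4, against 0. For the difference of effects DESeq2 called 189 and voom 24, against 4. No paired analysis was possible because the groups share no replicate numbers. Counts were low for Cnn1, with 18 in L133 and in L139 and 27 in L8.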
